A study of Mus musculus with 12 samples.

Results

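Levels of 9 genes of transforming growth factor beta (TGF-beta) signalling were measured in single cells of 12 mouse mammary tumours: the ligands Tgfb1, Tgfb2 and Tgfb3, the activin subunit gene Inhba, the receptors Tgfbr1 and Tgfbr2, the latent binding proteins Ltbp1 and Ltbp2, and the feedback inhibitor Smad7. They were chosen by symbol, and all 9 were found among the 24421 genes of the tables. All mice were untreated FVBN animals of the MMTV-Cre/HER2 Crainbow line, in which Cre under the mammary tumour virus promoter, active mainly in mammary epithelium, switches on a colour-tagged form of the receptor tyrosine kinase HER2, so every tumour, the comparison groups included, carried the transgene. Among nulliparous mice, 3 tumours carried d16, a splice isoform of HER2 (1 solid nodular tumour at 21 weeks, 2 metaplastic ones at 17 and 16 weeks), and 5 carried p95, an amino-terminally truncated form (all metaplastic, at 20, 17, 15, 16 and 17 weeks). Multiparous mice gave 4 tumours at 16 or 17 weeks whose HER2 form is labelled as unknown. Of these, tumours 2 and 4 were solid nodular and tumours 1 and 3 mixed. The labels do not say that each tumour came from a separate mouse, so p-values measure only the spread between these tumours.

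TGF-beta is secreted in a latent complex that latent TGF-beta binding proteins anchor to the extracellular matrix, and it acts once it is released from that complex. The active ligand binds the type II receptor, which activates the type I receptor, and this in turn phosphorylates Smad proteins that enter the nucleus and switch on target genes, among them the inhibitory Smad that closes the loop. In the mammary gland the pathway is known for restraining growth of the epithelium and, in tumours, for matrix production by fibroblasts and for the epithelial-to-mesenchymal transition.

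Cells were captured on a droplet instrument and read at the 3′ end with unique molecular identifiers (UMIs), each standing for 1 captured RNA molecule. The tables held 140348 to 4394398 UMIs and gave 177 to 1045 kept cells a tumour, and the 2 shallowest libraries, p95 tumour 1 and d16 tumour 1, had a median near 450 UMIs per cell (452 and 449). Clusters were named from marker genes as epithelial-like (3603 cells), fibroblast-like (1324), macrophage-like (930), T or NK-like (446), neutrophil-like (312), dendritic-like (270), pericyte-like (155) and endothelial-like (111). In fibroblast-like cells the summed level of 14 fibroblast markers was 42590 to 78850 UMIs per 1000000 UMIs, against 122 to 910.1 in epithelial-like cells. The same markers reached 29160 to 36790 in pericyte-like cells, and 12 luminal markers 11180 to 50510 in epithelial-like cells. Of the 215 cells of 1 unnamed cluster, 212 came from multiparous tumour 4, which left that tumour 32 epithelial-like cells with 24537 UMIs. The 12 luminal markers summed to 8921 UMIs per 1000000 UMIs in those 212 cells. Levels below are UMIs of a gene per 1000000 UMIs of the same cells (CPM), given in tumours with at least 20 cells of a class. Levels are compared within a gene, not between genes, and class and cluster levels are described without a test. UMIs released from broken cells were not removed, so a low level in a class does not show expression there, and a count of 0 allows up to 3 UMIs in the same cells (counting error only).

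The members differed between the fibroblast-like clusters. In each of the 7 tumours that held both, Tgfb2, Tgfb3, Inhba and Ltbp2 were higher in cluster 6 (855 cells, led by Mmp13 and Lrrc15) than in cluster 8 (332 cells, led by Dpt and Efemp1). In the same 7 tumours Tgfbr2 and Ltbp1 were higher in cluster 8, and Smad7 was higher there in 6 of the 7. The third cluster, 7 (137 cells, led by Thbs4 and Nov), was measured in only 2 tumours and was high in both kinds of gene: Tgfb3 was 159 and 228 CPM there and Tgfbr2 864 and 750 (multiparous tumour 3, d16 tumour 3). Tgfb3 was above cluster 6 in 1 of the 2 tumours, and Tgfbr2 above cluster 8 in 1 of the 2. None of the 9 genes was used to form the clusters.

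Tgfb2, the ligand best known from epithelial-mesenchymal interactions, had the largest share from fibroblast-like cells among the 9 genes: 76.2% of its 2300 UMIs came from fibroblast-like cells, which held 26.0% of all UMIs. The gene lies on the minus strand of mouse chromosome 1 at 186622792-186705989 (GRCm38, GENCODE M21). Its level in fibroblast-like cells was 163 and 285 CPM in d16 tumours 2 and 3. In p95 tumours 2 to 5 it was 531, 348, 188 and 287. In multiparous tumours 1 to 4 it was 332, 157, 251 and 85.1. Epithelial-like cells of all 12 tumours lay between 5.10 and 40.8 with a median of 28.1, below the fibroblast-like cells in 10 of the 10 tumours with both. Pericyte-like cells, with 20 or more cells in only 2 tumours, stood at 256 and 408 CPM, above the fibroblast-like cells of both. Macrophage-like cells gave 8 UMIs in all. In cluster 6 Tgfb2 ranged from 170 (d16 tumour 2) to 616 (p95 tumour 2) with a median of 318 over 9 tumours, and in cluster 8 from 44.8 to 211 with a median of 104 over 7.

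Tgfb3, a ligand with roles in the mammary gland during involution, had 2 sources of like size. Epithelial-like cells gave 47.6% of its 1998 UMIs and fibroblast-like cells 44.1%. Over all genes these classes held 13288302 and 6421881 of 24689207 UMIs. The fibroblast-like level was 58.9 to 214 CPM (median 101), above the epithelial-like level in 8 of 10 tumours, so these neighbours in the order were not fully apart. Pericyte-like cells, at 86.6 (p95 tumour 4) and 199 CPM (multiparous tumour 2), were above fibroblast-like cells in 1 of 2 tumours. Among epithelial-like clusters the milk-protein cluster 1, led by caseins (405 cells), had the highest median, 136 CPM (37.4 to 210.1 in 6 tumours). It exceeded the clusters led by Comp and Gpx2 (cluster 3) and by Wnt5b and Spp1 (cluster 9) in all 4 tumours shared with each. Cluster 0, led by Krt19 and Cited1, had a median of 14.7 and was below clusters 1, 2, 3, 9, 15 and 17 in every tumour shared with each. Neutrophil-like cells held 0 UMIs of Tgfb3. The gene, on chromosome 12 at 86056745-86079041 (minus strand), overlaps Ttll5 on the other strand at its 3′ end. Ttll5 had 459 UMIs, and since it is not stated whether strand was used in counting, reads of the 2 genes cannot be told apart with certainty.

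Tgfb1, the isoform best known from immune cells, was barely captured: 157 UMIs over 12 tumours, with 0 in p95 tumour 1 and d16 tumour 1. At the depth of those 2 tumours a count of 0 allows up to 28.6 and 13.5 CPM (3 counts; counting error only), against 1.98 to 13.5 in the other 10, so a lower level was not detectable there. Fibroblast-like cells gave 43.3% of the UMIs, epithelial-like cells 21.7% and macrophage-like cells 18.5%. Median class levels ran from 19.7 CPM in neutrophil-like cells (4 UMIs) and 13.6 in macrophage-like cells to 1.81 in epithelial-like cells. Pericyte-like cells, measured in 2 tumours, were at 0 in both. Fibroblast-like cells exceeded epithelial-like cells in 10 of 10 tumours, and epithelial-like exceeded pericyte-like cells in 2 of 2. The other neighbours in the order changed places between tumours. Within fibroblast-like cells, 63 of the 68 UMIs were in cluster 6 and 2 in cluster 8, with cluster 6 higher in 6 of 7 tumours.

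Inhba encodes the beta A subunit of activin A, a TGF-beta family ligand that acts through its own receptors on the same Smads. It had 2758 UMIs, 60.3% from fibroblast-like and 32.4% from epithelial-like cells. Fibroblast-like cells ranged from 56.1 (d16 tumour 2) to 885 CPM (p95 tumour 2) with a median of 243, and stood above epithelial-like cells in 10 of 10 tumours. Pericyte-like cells, at 223 (p95 tumour 4) and 228 CPM (multiparous tumour 2), were above fibroblast-like cells in 2 of 2 tumours. Within fibroblast-like cells cluster 6 held nearly all of the signal, with 1532 UMIs against 32 in cluster 8. Medians were 294 and 20.0 CPM. Among epithelial-like cells, cluster 15, a basal cluster led by Stmn2 and Msln (393 cells), had 92.1 to 405 CPM with a median of 301 over 5 tumours. In all 5 of these it exceeded cluster 0, cluster 9 and the Col17a1 and Krt5 cluster 17, whose median was 67.0. The luminal clusters led by caseins and by Comp were near 0, with 14 and 4 UMIs. Neutrophil-like cells stood at a median of 102 CPM on 26 UMIs. Luminal markers in the same cells summed to 912 to 23470 CPM, and their part in that level was not tested. The gene spans 16011851-16031621 of chromosome 13 (plus strand), with an antisense gene, Gm48444, over its 3′ end that is not listed in the tables.

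Ltbp2, a latent TGF-beta binding protein family member of elastic fibres that is known not to carry TGF-beta itself, had its highest class median in fibroblast-like cells (339.8 CPM), which were above epithelial-like cells in 8 of 10 tumours. Fibroblast-like cells gave 65.1% of its 3662 UMIs. Its level there was 174 and 417 CPM in d16 tumours 2 and 3. In p95 tumours 2 to 5 it was 7.08, 185, 162 and 348. In multiparous tumours 1 to 4 it was 332, 1108, 412 and 576. Multiparous tumour 2 was the highest and p95 tumour 2, where Inhba and Tgfb2 were at their highest, was the lowest, with 1 UMI. By cluster, Ltbp2 was highest in cluster 7, led by Thbs4 and Nov (986 and 1017 CPM in its 2 tumours), then in cluster 6 (median 279, 8.67 to 1241), and low in cluster 8 (57.4). Cluster 15 had the highest median of the epithelial-like clusters, 187 CPM, and was above clusters 0, 9 and 17 in 5 of 5 tumours. The T or NK-like cells gave 4 UMIs and the dendritic-like cells 1. Ltbp2 lies on the minus strand of chromosome 12 at 84783212-84876532.

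Ltbp1, which binds the latent ligand and tethers it to fibrillin, had the opposite order to Ltbp2 between clusters 6 and 8. Cluster 8 stood at 64.5 to 372 CPM (median 194), cluster 6 at 0 to 67.1 (median 8.67) and cluster 7 at 16.3 and 17.6. Most of its 1342 UMIs, 67.8%, came from epithelial-like cells, which held 13288302 of the 24689207 UMIs of all genes. The level there ranged from 15.4 (p95 tumour 1) to 174 (p95 tumour 4). Fibroblast-like cells were above epithelial-like cells in 6 of 10 tumours, so the order of these classes was not fixed. Pericyte-like cells, high in Tgfb2, had 0 UMIs of Ltbp1, and macrophage-like cells 6. The gene covers 75005568-75392512 of chromosome 17 (plus strand).

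**Figure D1:**
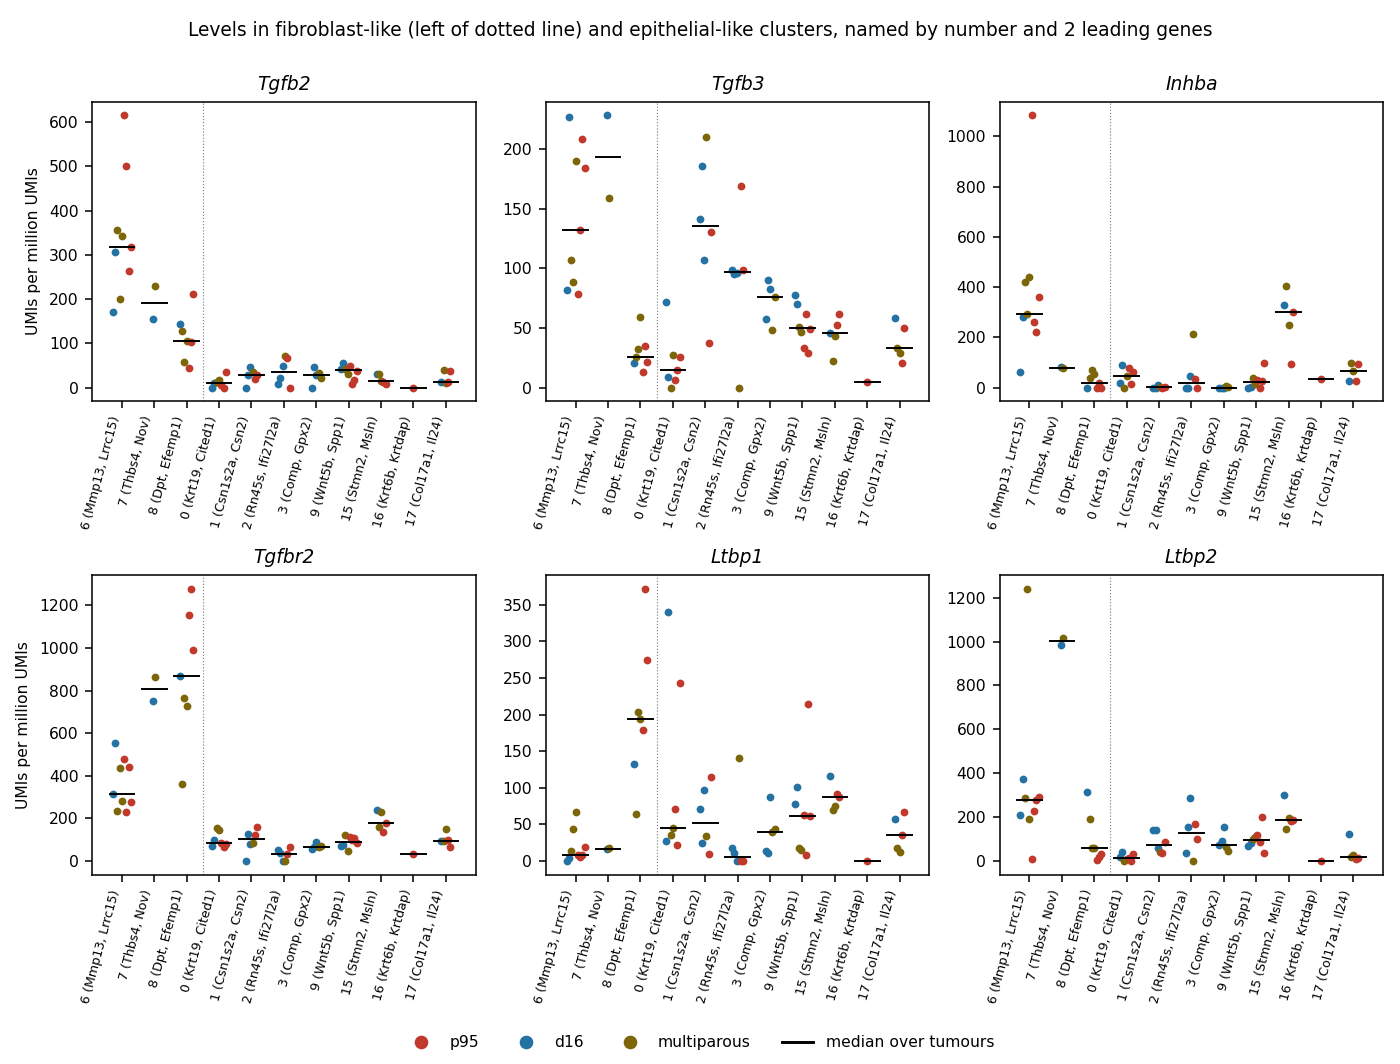
Level of 6 of the genes (CPM, y axis) in fibroblast-like clusters (left of the dotted line) and epithelial-like clusters (right), 1 point per tumour with at least 20 cells of the cluster, coloured by group, with the median as a line. Tgfb2, Inhba and Tgfb3 are higher in cluster 6 than in cluster 8, Tgfbr2 and Ltbp1 higher in cluster 8, and Inhba is high again in the basal cluster 15 (median 301).

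Tgfb2, Ltbp2 and Inhba, with Tgfb3 the members higher in cluster 6 than in cluster 8 in all 7 shared tumours, are shown with the 250 bases before their start sites from RefSeq (build GRCm38.p6), written 5′ to 3′ in the direction of transcription. Capitals mark the Smad box CAGAC, the short motif bound by Smad proteins, on either strand. RefSeq windows were matched for 7 of the 9 members. Tgfb2 lies at chr1:186705990-186706239 (minus strand), Ltbp2 at chr12:84876492-84876741 (minus strand) and Inhba at chr13:16011601-16011850 (plus strand).
Tgfb2: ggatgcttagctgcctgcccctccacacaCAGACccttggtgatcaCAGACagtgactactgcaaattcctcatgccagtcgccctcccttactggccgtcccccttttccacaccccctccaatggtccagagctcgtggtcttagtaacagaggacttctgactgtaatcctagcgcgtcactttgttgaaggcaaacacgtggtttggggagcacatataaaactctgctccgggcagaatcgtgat
Ltbp2: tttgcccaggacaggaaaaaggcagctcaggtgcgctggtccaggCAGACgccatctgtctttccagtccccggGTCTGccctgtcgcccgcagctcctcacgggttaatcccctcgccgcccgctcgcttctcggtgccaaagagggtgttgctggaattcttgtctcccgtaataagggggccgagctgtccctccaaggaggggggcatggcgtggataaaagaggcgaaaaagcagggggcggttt
Inhba: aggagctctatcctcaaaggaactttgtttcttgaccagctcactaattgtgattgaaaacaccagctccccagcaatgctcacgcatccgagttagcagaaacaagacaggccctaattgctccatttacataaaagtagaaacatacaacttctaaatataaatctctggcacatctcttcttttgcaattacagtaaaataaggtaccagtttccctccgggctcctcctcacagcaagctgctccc
Tgfb2 and Ltbp2 each held 2 matches and Inhba 0. The Tgfb2 matches began 221 and 204 bases before the start, those of Ltbp2 205 and 176 bases before it. The Tgfbr2 window held 1 match, Tgfb1 0, and the 2 windows of Tgfbr1 and of Ltbp1 0 and 1, and 1 and 2. The motif is common: 42.2% of 32851 promoter windows of that length hold at least 1. The AP-1 site TGANTCA, read on both strands, occurred in 0 of the 9 member windows and in 6.75% of all windows. A match is a match of letters and says nothing of binding.

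Tgfbr2, the ligand-binding type II receptor, was highest in fibroblast-like cells, with 285 (multiparous tumour 1) to 912 CPM (p95 tumour 4) and a median of 508. That was above epithelial-like cells in 10 of 10 tumours, dendritic-like cells in 5 of 5, macrophage-like cells in 9 of 10 and T or NK-like cells in 5 of 6. Below it the order was not firm: T or NK-like cells had a median of 280, dendritic-like cells 242 and macrophage-like cells 211, and these changed places between tumours. Pericyte-like cells, which share many markers with fibroblasts, stood at only 61.9 and 85.4 CPM. Among fibroblast-like clusters, cluster 8 ranged from 361 to 1279 (median 867) against 232 to 555 (median 313) in cluster 6. Cluster 7, at 750 and 864, was above cluster 6 in both of its tumours. Endothelial-like cells, too few in any tumour to be given by tumour, had 86 UMIs (321 CPM over all). Within the T or NK class, cluster 12, led by Cd7 and Xcl1, had a median of 391 and cluster 10, led by Il2ra and Icos and with Foxp3 among its leading genes, 155. Tgfbr2 lies on chromosome 9 at 116084293-116175360 (minus strand).

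Tgfbr1, the type I receptor kinase, had another distribution. Fibroblast-like, macrophage-like and epithelial-like cells gave 28.5, 28.1 and 27.2% of its 2196 UMIs, while macrophage-like cells made up only 8.11% of all UMIs. Their level, 70.8 to 649 CPM with a median of 271, was above that of epithelial-like cells (median 49.9) in 12 of 12 tumours and above fibroblast-like cells (median 95.9) in 9 of 10. Neutrophil-like (median 185) and dendritic-like cells (161) were not apart from macrophage-like cells, which were higher in 2 of 6 and 2 of 5 tumours. Cluster 5, led by Apoe and C1qb, held 609 of the macrophage-like UMIs at a median of 324, and cluster 19, led by Retnla and Ccl8, held 8 on 102 cells. Tgfbr1 is on chromosome 4 at 47353222-47414931 (plus strand).

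Smad7, the inhibitory Smad induced by TGF-beta and by other signals, had 7714 UMIs and was present in every class. T or NK-like cells had the highest median, 549 CPM, and exceeded epithelial-like cells (median 304) in 4 of 6 tumours. In multiparous tumour 1 they gave 36.9, on 22 cells. Epithelial-like and fibroblast-like cells (median 299.9) could not be ordered, with the first higher in 6 of 10 tumours. Macrophage-like (130) and dendritic-like cells (108) were the low end. Cluster 15 was the highest epithelial-like cluster, with a median of 589 CPM, and exceeded clusters 0, 9 and 17 in 4 of 5 tumours each. Smad7 is on chromosome 18.

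**Figure D2:**
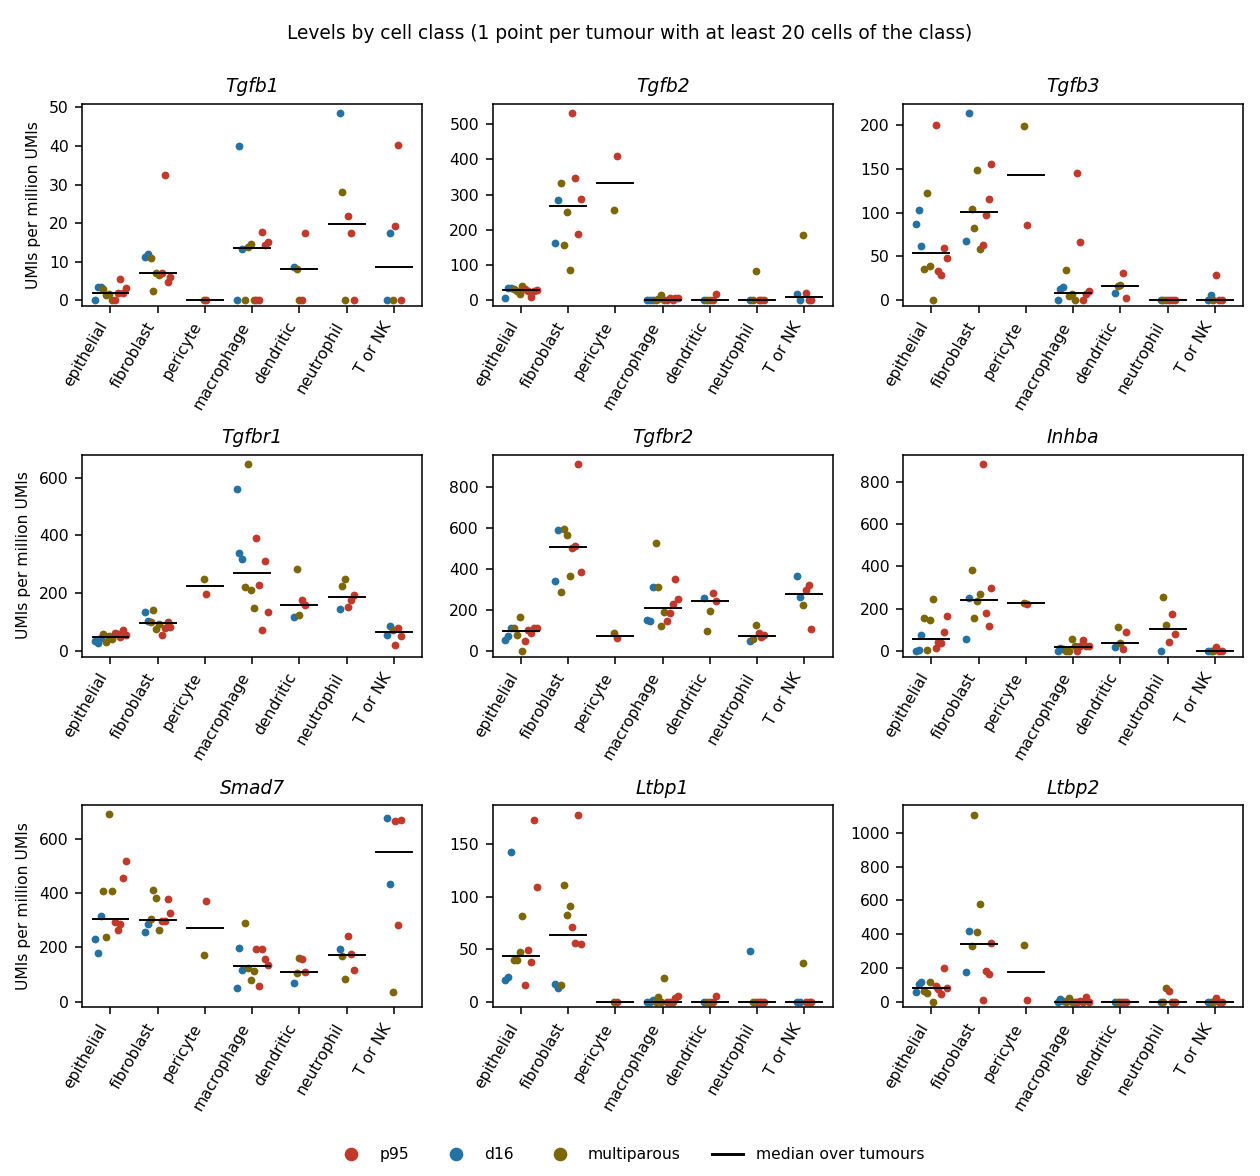
Level of each of the 9 genes (CPM, y axis) by cell class, 1 point per tumour with at least 20 cells of the class, coloured by group, with the median over tumours as a line. Tgfb2 is high in fibroblast-like and pericyte-like cells, Ltbp2 in fibroblast-like cells, Tgfbr1 in macrophage-like cells and Tgfbr2 in fibroblast-like cells.

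The genes whose levels followed each member most closely were taken from the 54 tumour-by-class sums, as Pearson r of log2(CPM + 10) over 9676 other genes (9677 for Tgfb1) with at least 200 UMIs. These sums share tumours and depth, so the values are descriptions. Tgfb2 was closest to Timp3 (r = 0.89), Wisp1 (0.88) and Csrp2 (0.88). Ltbp2 was closest to P3h4 (0.86), Serpina3n and Klhl13 (both 0.85), and Inhba to Dcbld2 (0.77), Htra1 (0.77) and Angptl2 (0.76). Tgfbr1 went with Abca1 (0.78) and Cst3 (0.77), genes known from macrophages, and Tgfbr2 with Vim (0.69), Htra3 (0.69) and Col14a1 (0.66). Tgfb3 was nearest Klhl22 (0.81), Tns2 (0.81) and Adamts7 (0.80), Ltbp1 nearest Tubb2b (0.77), Efna5 (0.77) and Sbsn (0.76), and Smad7 nearest Dusp10 (0.75), Lrig1 (0.74) and Fam214a (0.69). For Tgfb1, with its few UMIs, no gene passed 0.52 (Itpr2, with Zmat5 and Hnrnpul1 at 0.51 and 0.50). Among the members, Ltbp2 and Tgfb3 (0.70), Ltbp2 and Tgfb2 (0.68), Tgfb2 and Inhba (0.62) and Tgfb2 and Tgfb3 (0.62) were the closest pairs, and Tgfbr1 and Smad7 ran opposite (-0.60).

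**Figure D3:**
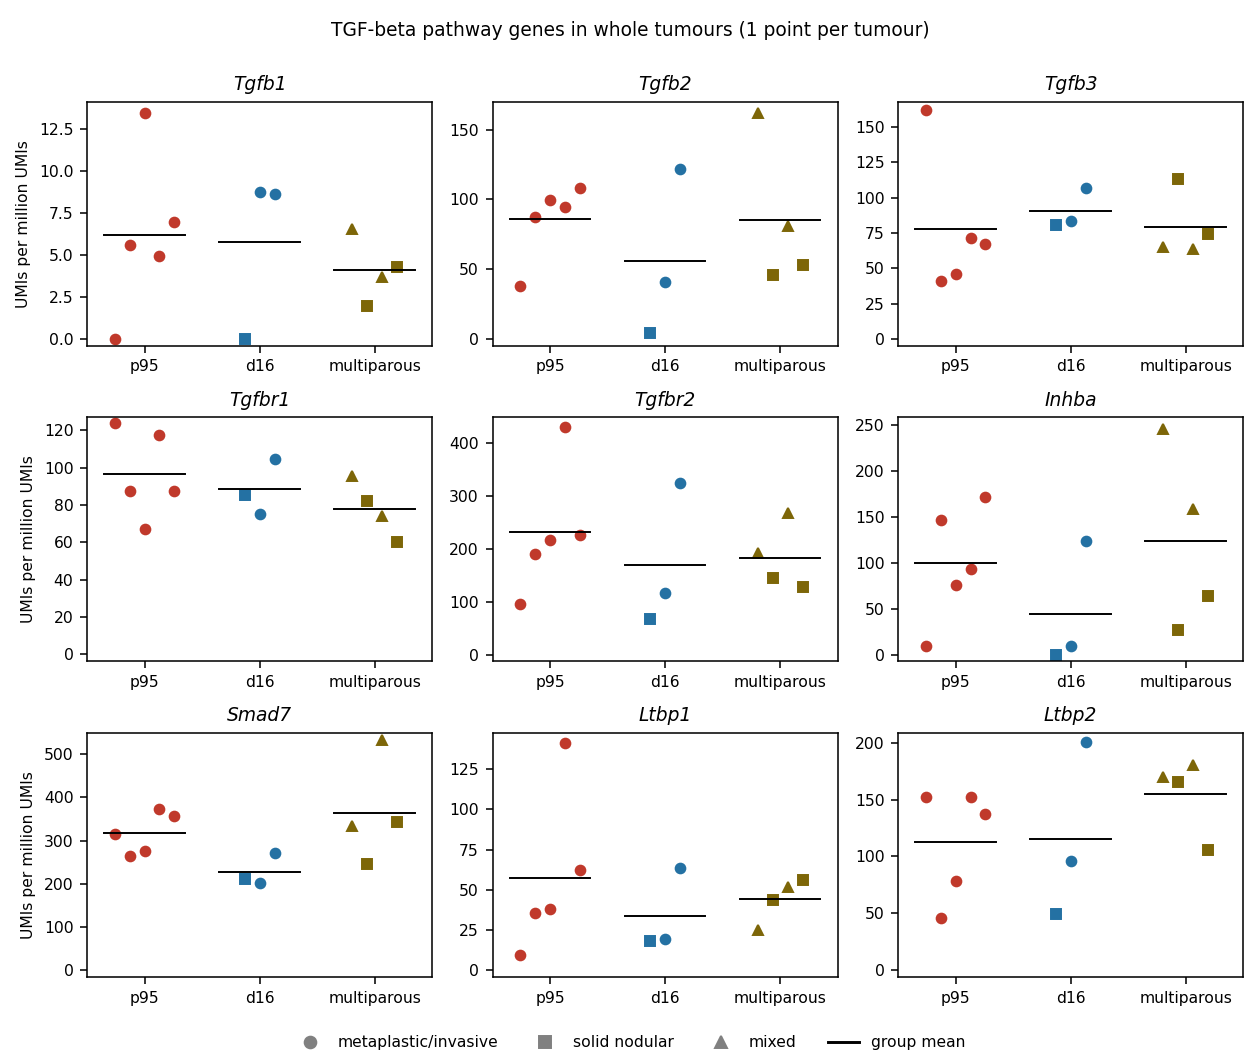
Level of each of the 9 genes over all cells of a tumour (CPM, y axis), 1 point per tumour by group, with the histology as the shape of the point and the group mean as a line. The squares (solid nodular tumours) are low for Tgfb1, Tgfb2, Tgfbr2 and Inhba, with d16 tumour 1 the lowest for each except a tie with p95 tumour 1 at 0 for Tgfb1.

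Levels over whole tumours were then compared between forms of HER2, parities and histologies with edgeR's quasi-likelihood test over all genes that passed its low-count filter. No member passed an adjusted p of 0.05 in any of these comparisons, and DESeq2 and limma voom on the same sums also called 0 members in each. In a sum over a whole tumour, fewer cells of a type and less RNA per cell cannot be told apart.

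Of the whole-tumour comparisons, histology gave the 3 smallest p-values of members. Solid nodular tumours (3) were set against metaplastic ones (7), and 8 of 9 members had a lower level in the solid tumours (median log2 fold change -0.56, against -0.02 for the 11394 genes tested, of which 48.9% were higher). Without the 2 shallowest tumours 7 of 9 were lower, Ltbp2 turning to 0.13. Tgfb2 stood at 4.50, 46.0 and 52.9 CPM in d16 tumour 1 and multiparous tumours 2 and 4. In the metaplastic tumours it ranged from 38.1 to 122 with a median of 94.8, and 5 of the 7 lay above all solid tumours. The log2 fold change was -1.27 ± 0.50 (SE; edgeR adjusted p = 0.202). Tgfbr2 was 67.5, 144 and 127 CPM in the same solid tumours and 95.3 to 430 (median 216) in the metaplastic ones, overlapping in p95 tumour 1 and d16 tumour 2 (log2 fold change -1.12 ± 0.48; edgeR adjusted p = 0.223). Tgfb1 was 0, 1.98 and 4.32 against 0 to 13.5 (median 7.0), with a log2 fold change of -1.73 ± 0.63 (edgeR adjusted p = 0.177). These were the 3 members with an unadjusted p under 0.05, in a comparison in which 19.6% of all genes reached that level and 0% (0 of 11394) passed edgeR's adjusted threshold (578 by DESeq2 and 21 by limma voom, 0 members in each).

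Inhba, at 0 (which allows up to 13.5), 26.5 and 63.7 CPM in the solid and 9.30 to 172 (median 93.2) in the metaplastic tumours, had a log2 fold change of -1.60 ± 0.86 (edgeR adjusted p = 0.320). For Tgfbr1 it was -0.42 ± 0.24, for Ltbp1 -0.56 ± 0.60, for Smad7 -0.25 ± 0.26, for Ltbp2 -0.21 ± 0.44 and for Tgfb3 0.14 ± 0.34, none with an unadjusted p under 0.05. Fibroblast-like cells, the main source of Tgfb2, Tgfbr2 and Inhba, were 7.10 ± 5.11% of cells in the solid tumours (SD, n = 3) and 17.3 ± 9.96% in the metaplastic ones (n = 7), and their part in these differences was not tested. Within fibroblast-like cells, which only 2 solid tumours held in number, Tgfb2 was 157 and 85.1 CPM against 163 to 531 in 6 metaplastic tumours. Ltbp2 went the other way, 1108 and 576 against 7.08 to 417. With cells pooled over tumours, cluster 6 made up 41.2% of the fibroblast-like cells of solid and 66.7% of those of metaplastic tumours. By tumour it was 38.4 and 40.7% in these 2 solid tumours and 30.9 to 81.8% in the 6 metaplastic ones. The part of cluster 6 in these values was not tested. Tgfbr2 was 593 and 367 against 342 to 912, overlapping.

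The tables came in 2 layouts, 4 with intact gene names and 8 in which some names had turned into dates. Within each layout the solid tumours lay below every metaplastic tumour for Tgfb2 and Tgfbr2. How many of all genes lay apart in this way was not counted, so the order is not particular to these members. For Inhba the same order held in the second layout. In the first, the 0 of d16 tumour 1 allows up to 13.5 CPM, above the 9.53 and 9.30 of p95 tumour 1 and d16 tumour 2. The first layout set d16 tumour 1 against p95 tumours 1 and 2 and d16 tumour 2. In the second it was multiparous tumours 2 and 4 (Tgfb2 46.0 and 52.9, Inhba 26.5 and 63.7 CPM) against d16 tumour 3 and p95 tumours 3 to 5 (Tgfb2 94.8 to 122, Inhba 76.1 to 172). All solid tumours of the second layout were multiparous and all its metaplastic ones nulliparous, so parity and histology cannot be told apart there. The mixed tumours of multiparous mice, left out of the test, had 162 and 81.0 CPM of Tgfb2 and 247 and 159 of Inhba, above both solid tumours of the same group. With the layout as a covariate edgeR called 2 members, Tgfb2 (-1.49 ± 0.38, adjusted p = 0.0368) and Tgfbr2 (-1.25 ± 0.32, adjusted p = 0.0391), among 882 genes called.

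For the form of HER2, d16 (3 tumours) against p95 (5), 7 of 9 members were lower in d16 (median log2 fold change -0.53, -0.02 over 11061 genes). Among these tumours only d16 tumour 1 was solid nodular, so form of HER2 and histology cannot be fully told apart in this comparison. No member had an unadjusted p under 0.05, 0 passed the adjusted threshold and 0% of all genes did, with 4.37% at an unadjusted p under 0.05 and 3 genes called by DESeq2. Smad7 was 212, 201 and 271 CPM in d16 tumours 1 to 3 and 315, 264, 277, 372 and 358 in p95 tumours 1 to 5, overlapping only through d16 tumour 3 and p95 tumour 2. Its log2 fold change was -0.57 ± 0.27 (edgeR adjusted p = 0.932). Inhba was split within both groups, at 0, 9.30 and 124 in d16 and 9.53, 146, 76.1, 93.2 and 172 in p95, with d16 tumour 3 among the p95 values (-1.12 ± 0.92, adjusted p = 0.932). Without d16 tumour 3 the log2 fold change was -3.96, without d16 tumour 1 or 2 -0.70 and -0.62. For Ltbp1 the log2 fold change was -0.86 ± 0.66, for Tgfb2 -0.60 ± 0.61, for Tgfbr2 -0.53 ± 0.58, for Tgfb3 0.33 ± 0.36 and for Tgfbr1 -0.19 ± 0.27. These too moved with 1 tumour: without d16 tumour 3 the values were -1.89 (Ltbp1), -1.78 (Tgfb2) and -1.49 (Tgfbr2), without d16 tumour 1 they were -0.64, -0.19 and -0.16, and without p95 tumour 4 Ltbp1 was -0.22 and Tgfbr2 -0.17. Ltbp2 (0.07 ± 0.49) and Tgfb1 (-0.09 ± 0.63) were near 0 with errors of 0.49 and 0.63 on the log2 scale.

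Multiparous (4) and nulliparous tumours (8) did not split in 1 direction: 5 members were higher and 4 lower in multiparous tumours, 0 had an unadjusted p under 0.05 and 0 passed the adjusted threshold, which 0.0801% of genes did (9 of 11242). Smad7 was 334, 245, 533 and 344 CPM in multiparous tumours 1 to 4 against 201 to 372 (nulliparous), with a log2 fold change of 0.34 ± 0.25 (edgeR adjusted p = 0.862). For Ltbp2 the fold was 0.44 ± 0.36, for Inhba 0.51 ± 0.77, for Tgfb1 -0.88 ± 0.51, for Tgfbr1 -0.24 ± 0.21, for Tgfbr2 -0.26 ± 0.45 and for Ltbp1 -0.33 ± 0.52. Tgfb2 (0.09 ± 0.51) and Tgfb3 (0.04 ± 0.29) were near 0. All groups overlapped.

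**Figure D4:**
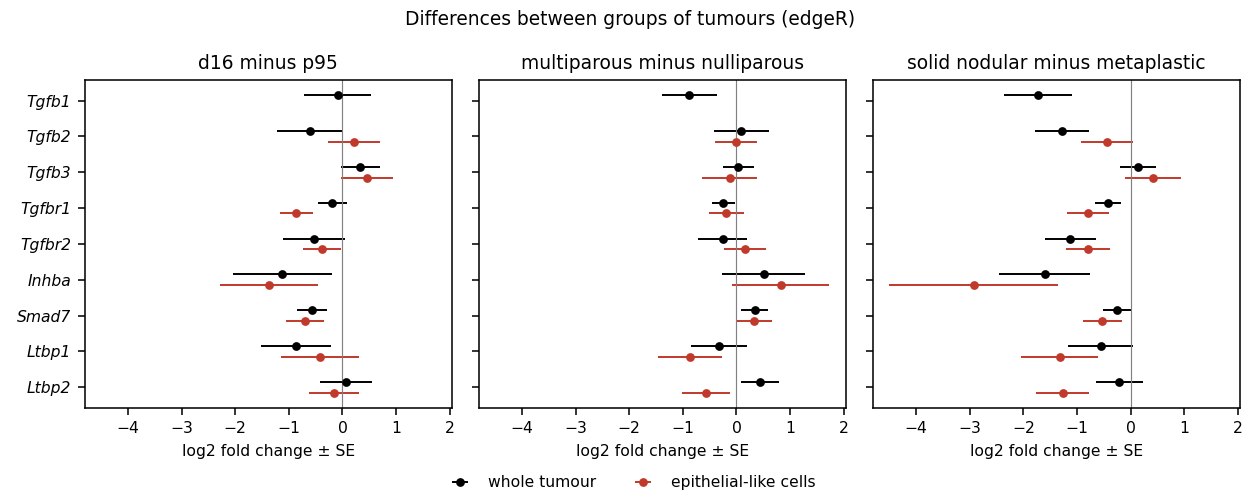
Log2 fold change ± SE of each member (x axis) in whole tumours (black) and in epithelial-like cells (red) for 3 comparisons, from edgeR. In the solid against metaplastic comparison most points lie left of 0, and no point passed an adjusted p of 0.05.

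In epithelial-like cells, whose clusters differed between groups, 8 members passed the low-count filter, Tgfb1 being too low, and 0 were called in any of the 3 comparisons. Background calls were 0% for d16 against p95 (0 of 9257 genes), 0% for parity (0 of 9540) and 0.0105% for histology (1 of 9518). With cells pooled over tumours, cluster 2, led by Rn45s, and cluster 3 held 43.3 and 19.8% of the epithelial-like cells of d16 tumours. In p95 tumours they held 13.2 and 2.13%, and cluster 9 was the largest (27.6%). Cluster 2 varied within both groups, at 75.5, 44.9 and 8.36% in d16 tumours 1 to 3. In p95 tumours 1 to 5 it was 60.2, 14.8, 3.49, 7.39 and 2.23%. Its highest shares were in d16 tumour 1 and p95 tumour 1, the 2 shallowest libraries. Cluster 3 was 10.5 to 24.9% in d16 and 0 to 6.25% in p95 tumours. The part of these clusters in the values below was not tested. Tgfbr1, in d16 against p95, was 35.7, 26.0 and 43.2 CPM in d16 tumours 1 to 3. In p95 tumours 1 to 5 it was 61.8, 58.4, 49.7, 71.4 and 55.2, all of them higher. How many of all genes lay apart in this way was not counted. The log2 fold change was -0.86 ± 0.30 (edgeR adjusted p = 0.813), in a comparison where 5.62% of genes had an unadjusted p under 0.05. Smad7 in the same comparison was -0.70 ± 0.35, Inhba -1.37 ± 0.92 and Tgfbr2 -0.38 ± 0.36, and the other 4 members had a log2 fold change smaller than its SE. For Inhba it was -4.75 without d16 tumour 3 and -0.82 without d16 tumour 2. In multiparous against nulliparous tumours, Ltbp1 (-0.87 ± 0.59) and Ltbp2 (-0.56 ± 0.45) were the members with a fold larger than its SE, and 0 members had an unadjusted p under 0.05.

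Pooled over solid tumours, 18.9, 31.8 and 45.8% of epithelial-like cells lay in clusters 1, 2 and 3, but these tumours differed. Cluster 3 was 17.5, 66.3 and 6.25% in d16 tumour 1 and multiparous tumours 2 and 4. Cluster 2 was 75.5% in d16 tumour 1, 1.41% in multiparous tumour 2 and 24 of the 32 cells in multiparous tumour 4. Cluster 15, where Ltbp2, Inhba and Smad7 were highest, held 0.238% (2 cells) of the pooled solid and 9.38% of the pooled metaplastic cells. By tumour it was 0 to 0.403% in solid and 0.413 to 35.2% in metaplastic ones. The part of these clusters in the values was not tested. Epithelial-like Ltbp2 was 56.1, 49.2 and 0 CPM in the solid tumours (d16 tumour 1, multiparous tumours 2 and 4) and 47.4 to 201 in the metaplastic ones. The log2 fold change was -1.27 ± 0.50 (edgeR adjusted p = 0.198), the 1 member with an unadjusted p under 0.05, which 18.1% of genes had. The 0 in multiparous tumour 4 rests on 24537 UMIs. Ltbp1 had a log2 fold change of -1.32 ± 0.72, Tgfbr1 and Tgfbr2 of -0.80 ± 0.39 and -0.79 ± 0.42, and Smad7 of -0.52 ± 0.36. For Inhba the fitted value, -2.92 ± 1.58 (adjusted p = 0.349), and the group means went opposite ways, 82.5 CPM in solid and 61.3 in metaplastic tumours. Multiparous tumour 4 gave 245 CPM on 6 UMIs in its 32 epithelial-like cells, and the other solid tumours 0 and 2.82. The 212 unnamed cells of multiparous tumour 4 gave 10.3 CPM. With cells named directly by their marker UMIs, 184 cells of that tumour were epithelial-like. The highest epithelial-like Inhba of any tumour was then 158 CPM, in p95 tumour 5. Without multiparous tumour 4 the log2 fold change was -4.64 (adjusted p = 0.147), without multiparous tumour 2 it was -0.87, and by DESeq2 it was -0.30.

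Fibroblast-like cells could be tested only for parity, 4 multiparous against 6 nulliparous tumours, with 8 members. These multiparous tumours were solid nodular or mixed and the nulliparous ones all metaplastic, so parity and histology cannot be told apart here. No member was called, where 0.0305% of genes were (2 of 6557). Ltbp2 was 332, 1108, 412 and 576 CPM in the multiparous tumours and 7.08 to 417 (median 179) in the nulliparous ones, where d16 tumour 3 and p95 tumour 5 overlapped the lower multiparous values. Its log2 fold change was 1.45 ± 0.52 (edgeR adjusted p = 0.456), and 0.97 without multiparous tumour 2. It was the 1 member with an unadjusted p under 0.05, which 8.69% of genes had. Tgfb2 went the other way without passing the test, -0.50 ± 0.37 (adjusted p = 0.716). The other 6 had a fold smaller than its SE. Cluster 7, the highest for Ltbp2, was 7.92, 18.6, 24.8 and 14.8% of the fibroblast-like cells of multiparous tumours 1 to 4 and 0 to 9.35% of those of the 6 nulliparous tumours, and its part in the Ltbp2 value was not tested.

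In macrophage-like cells only Tgfbr1, Tgfbr2 and Smad7 were high enough to test. Calls were 0 of 3 members for d16 against p95 (0% of 3352 genes), for parity (0.0646% of 3094 genes) and for histology (0.0543% of 3682 genes), and 0 had an unadjusted p under 0.05. Tgfbr1, whose class median was highest in these cells, had 406 ± 134 CPM in d16 (SD, n = 3) and 228 ± 129 in p95 tumours (n = 5), a log2 fold change of 0.82 ± 0.41 (edgeR adjusted p = 0.9997). In solid against metaplastic tumours it was 0.74 ± 0.44, and 0.02 without multiparous tumour 2 and 1.17 without multiparous tumour 4.

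The rest of the pathway was read from 54 genes in 4 lists: latency and activation, receptors and co-receptors, Smad relay and feedback, and response genes. Over whole tumours 0 passed the adjusted threshold in any comparison. In solid against metaplastic tumours 43 of the 50 tested were lower and 7 higher (median log2 fold change -0.55), and 13 had an unadjusted p under 0.05. Over all 11394 genes tested 48.9% were higher, the median was -0.02 and 19.6% had an unadjusted p under 0.05. Response genes gave 14 lower of 15 (median -0.80). Tgfbi, a secreted matrix protein named for its induction by TGF-beta, had the smallest p, with a log2 fold change of -1.90 ± 0.30 (edgeR adjusted p = 0.0612). Junb, an AP-1 subunit, had -0.80 ± 0.22 (adjusted p = 0.113) and Id3, an inhibitor of helix-loop-helix factors, -1.26 ± 0.38 (adjusted p = 0.125). The same 15 response genes in epithelial-like cells gave 14 lower, with a median of -1.70. Over all genes there the median was -0.07 and 45.7% were higher.

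In d16 against p95, 43 of 50 pathway genes were lower (median -0.35, with 48% of all genes higher and their median at -0.02). Here too d16 tumour 1 was the only solid nodular tumour, so form of HER2 and histology cannot be fully told apart. Of the 50, 1 had an unadjusted p under 0.05, as did 4.37% of all genes. The 1 gene was Smad6, an inhibitory Smad of the bone morphogenetic protein branch, with a log2 fold change of 1.42 ± 0.59 (edgeR adjusted p = 0.932). The co-receptor betaglycan gene Tgfbr3 (-1.16 ± 0.53) and Tgfbi (-0.87 ± 0.42) came next. By parity, 25 were higher and 24 lower (median 0.01), and 6 of the 49 had an unadjusted p under 0.05, as did 7.61% of all genes. The smallest p values were those of Id2 (-1.0 ± 0.27, adjusted p = 0.254), Bhlhe40 (-0.64 ± 0.22) and Junb (-0.60 ± 0.23).

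Summed over the 15 response genes, epithelial-like cells had the lowest median, 3452 CPM (1940.0 to 4506 in 12 tumours). They were below fibroblast-like cells in 10 of 10 tumours, macrophage-like cells in 12 of 12 and neutrophil-like cells in 5 of 6. Fibroblast-like cells had 6532, macrophage-like cells 6440.0, dendritic-like cells 6878, T or NK-like cells 6051, neutrophil-like cells 4925 and pericyte-like cells 7827 in 2 tumours. Single genes had different leading classes: Tgfbi was highest in macrophage-like cells (median 1230.0), Ctgf, a matricellular growth factor, in pericyte-like cells (1469) and Bhlhe40 in T or NK-like cells (1409). Of the 14 genes of latency and activation, 5 were highest in fibroblast-like cells, among them the fibrillin Fbn1 (1887) and the proteoglycan Dcn (3402). Another 4 were highest in pericyte-like cells, including Lrrc32, which holds latent TGF-beta at the cell surface (365), and Thbs1, an activator of the latent form (3473).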

How the data were processed

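Each tumour has 1 deposited table of raw UMI counts (genes by cells). Per the labels, dissociated tumour cells were captured on a ddSEQ instrument with SureCell 3′ chemistry. Seurat 3.0.2 and GRCm38 are named in the submitters' processing notes. Aligner, annotation and strand setting are not given in the sources used here. Gene names that had become dates (27 in each of 8 files) or were otherwise altered were restored, 1708 in all. There are 0 mitochondrial genes.

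A cell needed 200 detected genes (7366 of 8486 barcodes stayed). Clustering used scanpy 1.11.5 on log values scaled to 10000 UMIs per cell, with 2000 variable genes that excluded members and pathway genes, 30 components, 15 neighbours and Leiden resolution 1 (21 clusters). Names came from 15 marker lists and needed 3 detected markers, with no excess of another class among the 10 leading genes. A condition added after seeing the data, that leading keratins must not go against a name, left 1 cluster unnamed. Predicted doublets (241 cells, 3.27%) stayed in. Any pair of tumours shared at most 3 barcodes, and all differed beyond sampling noise.

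Sums of UMI counts over whole tumours or over a class were tested with edgeR 4.0.16 in R 4.3.3 (quasi-likelihood test, filterByExpr, TMM, Benjamini-Hochberg, 0.05), if at least 3 tumours a side had 20 such cells. The SE comes from the F statistic. The code was tested on simulated counts. Mixed tumours did not enter the histology comparison, nor multiparous ones that of d16 and p95. The members, lists and tests were chosen with earlier results of these data known. Named in the text are all 9 members (in a class, those with a fold above its SE), the pathway genes past the threshold or else the 3 with the smallest p, and the 3 genes most like each member, of which 1 is not reported here. Other settings tried were DESeq2 1.42.0, limma 3.58.1 voom without and with a block for the title number, size factors of the RLE type, no filter, 500 genes per cell, doublets removed, file layout as covariate, resolution 2, a gate on markers (3 UMIs, 2 times the next class), and leaving out the 2 shallowest tumours or each tumour.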

Additional observations from a re-analysis of the deposited data

Results flagged for a closer look

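Of 54 sets of tumours (9 genes, p95 or multiparous, whole tumours, epithelial-like or fibroblast-like cells), 5 held a tumour far from the others by Dixon's 95% criterion, and chance flags about 1 in 20. Levels are UMIs per 1000000 UMIs (CPM). Tgfb3 stood apart in p95 tumour 1, at 162 CPM in the whole tumour against 71.3 in the next p95 tumour, and at 201 in its epithelial-like cells (13 UMIs) against 60.3. That tumour is the shallowest library, with 140348 UMIs. Epithelial-like Tgfb2 was lowest in p95 tumour 3, at 10.3 CPM against 25.0 to 30.9 in the other 4. In fibroblast-like cells Tgfb1 was highest in p95 tumour 3, at 32.6 CPM against 7.08 in the next, and Ltbp1 was highest in p95 tumour 4, at 178 against 70.8 in the next.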

How the results depend on the processing

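Of 203 refits of the 10 comparisons under other settings, 202 called 0 members. The exception was the histology comparison in whole tumours with the file layout as covariate, which called 2 members. The count of all genes called moved more: for histology in whole tumours from 0 to 578 with DESeq2, 33 with no filter, 21 with limma voom and 882 with layout, and in epithelial-like cells from 1 to 278 with DESeq2, 20 with the marker gate and 388 with layout. By parity in whole tumours it moved from 9 to 157 with DESeq2. Some log2 fold changes of members turned direction. For Tgfb1 in d16 against p95 (whole tumours), the value became 0.19 with limma voom and the replicate block, 0.089 without the 2 shallowest tumours, 0.13 with layout as covariate and 0.11 at 500 genes per cell. For Tgfb2 by parity it became -0.0076 with limma voom and no replicate block, -0.16 without the 2 shallowest tumours and -0.36 with layout as covariate. For Ltbp2 by histology it became 0.13 without the 2 shallowest tumours. Leaving out each tumour in turn moved the following whole-tumour values across 0: by form of HER2, Ltbp2 (-0.65 to 0.42) and Tgfb1 (-0.32 to 0.35); by parity, Tgfb2 (-0.45 to 0.30), Tgfb3 (-0.22 to 0.15), Inhba (-0.092 to 0.83) and Ltbp1 (-0.47 to 0.14); by histology, Ltbp2 (-0.76 to 0.12) and Tgfb3 (-0.19 to 0.30). The other 35 of 43 reported fold changes kept their direction under leaving out, and 28 of the 43 moved by over 1.5 times when 1 tumour was left out.

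The leading class of 8 of the 9 members was the same in 5 ways of choosing and naming cells. For Tgfbr1 it moved between fibroblast-like (28.5%) and macrophage-like cells (28.7% without doublets, 30.7% at resolution 2), and 0 of 36 recomputed shares moved by more than the spread between tumours. Title numbers are shared by 2 pairs of tumours (p95 tumour 2 with d16 tumour 2, p95 tumour 4 with d16 tumour 3, with correlations of deviations of 0.289 and 0.213). With 2 pairs this does not establish pairing, and the block changed the call of 0 members. Fibroblast-like cells could not be fitted by form of HER2 (2 against 4 tumours) or by histology (2 against 6). Depth limits Tgfb1 most, with 157 UMIs in all.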
